A study of Arabidopsis thaliana with 9 samples.

Results

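The comparison of 7 days with 1 day of carbenicillin used 6 of the 9 root libraries of the series, 3 from each exposure, and covered the 19371 of 28775 genes that passed a filter on low counts. Carbenicillin is a beta-lactam antibiotic that blocks cell wall synthesis in bacteria and is widely used in plant tissue culture. All seedlings were Arabidopsis thaliana of the Col-0 ecotype, grown on ½ MS, a mineral plant medium, and moved once to a fresh plate. The 7 day seedlings stayed on medium with 10 µg/mL carbenicillin for 6 days and were then moved to fresh medium with the same dose for 1 more day. The 1 day seedlings had 6 days on plain medium and met the antibiotic at the same dose only on the second plate, for 1 day. The mock seedlings, given here for scale, were moved between plain plates in the same way and never met it. The comparison thus asks what the first 6 days on carbenicillin add to the last one.

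Roots on agar plates are usually exposed to light, and light signalling through the bZIP factor HY5 switches on flavonol synthesis and early light-induced proteins in them. Flavonols are built from phenylpropanoids by chalcone synthase and the enzymes after it, under the activator MYB12, and are then glycosylated by UDP-sugar transferases. When sugar runs short, as in the dark, plants switch on another set of genes, the dark-inducible ones, which serve the use of amino acids and wall sugars.

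The 7 day libraries held 14143281, 14924200 and 6707693 counts, and the 1 day libraries 13707967, 16088265 and 7533177, so replicate 3 had the lowest total in both groups. All 12 root markers had counts above 0 in each of the 6 libraries, and none of 28 shoot and leaf markers was at 0 throughout. The summed level of the shoot markers was 432, 421 and 982 CPM (counts scaled to library size) in the 7 day libraries and 450, 456 and 751 CPM in the 1 day libraries. In a principal component analysis of 500 genes, the leading axis (55.0% of variance) placed 7 day replicate 3 at 25.9 and 1 day replicate 3 at 9.05, and the other 4 libraries between -10.4 and -6.08. The next axis (18.6%) set these 2 apart, with 7 day replicate 3 at 7.87 and 1 day replicate 3 at -15.9, and the other 4 between -2.81 and 4.12. The labels give replicas a number but no statement of separate cultures, and the p-values therefore reflect the spread among these libraries, which may be technical. Libraries with the same number deviated together and are called pairs here.

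With all 3 pairs, edgeR's quasi-likelihood test with the pair as a block told no gene apart between 7 days and 1 day on carbenicillin. It called 0 genes higher and 0 genes lower at a Benjamini-Hochberg adjusted p under 0.05, which is 0% of the 19371 tested in each direction. At an unadjusted p under 0.05 there were 377 genes higher (1.95%) and 350 genes lower (1.81%) at 7 days. DESeq2 called 3 genes, all higher. Most differences were also bounded. The 95% interval of the log2 fold change, 7 days over 1 day, lay within 2-fold in either direction for 17858 genes, or 92.2%. That share was 99.4% in the third of genes with the highest expression and 78.0% in the third with the lowest. The median log2 fold change was 0.00 with a median standard error (SE) of 0.15, 95% of genes lay between -0.44 and 0.44, and 22 genes were higher and 30 lower by at least 1 on the log2 scale. The 3 libraries of each group did not overlap in 593 genes that were higher (3.06%) and 640 that were lower (3.3%) at 7 days.

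**Figure D1:**
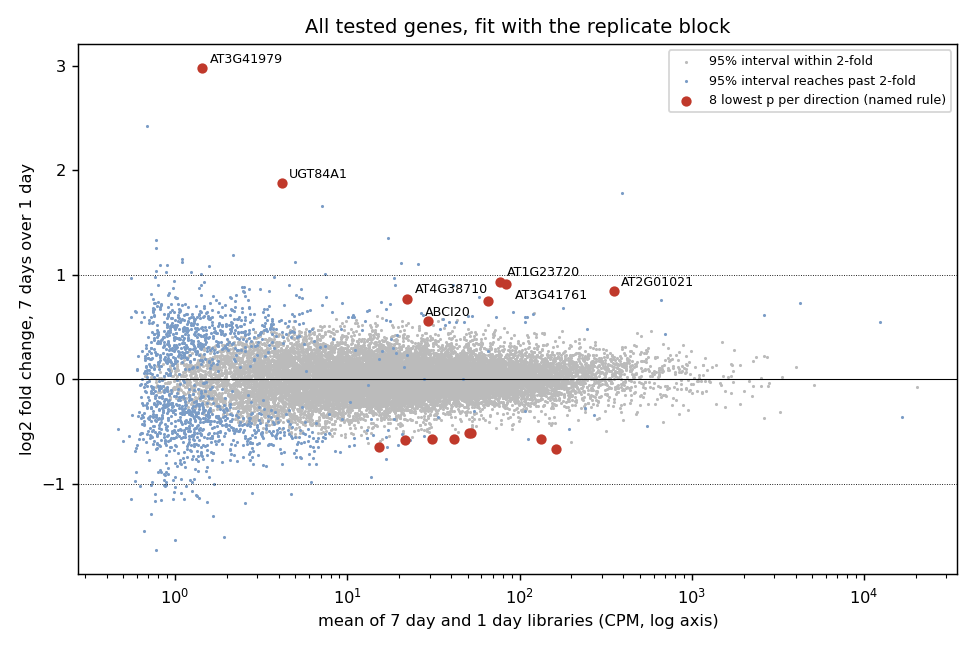
Log2 fold change of 7 days over 1 day (vertical axis) against the mean CPM of the 6 libraries (horizontal log axis), 1 point per tested gene, from the fit with the pair as a block. Grey points have a 95% interval within 2-fold and blue points do not, red points are the 8 genes with the lowest p in each direction, and 0 of the 19371 genes passed the test.

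The pairs did not resemble each other. Over all tested genes, the log2 ratio of 7 days to 1 day in pair 1 correlated with that in pair 2 at 0.19, while pair 3 correlated with pair 1 at -0.13 and with pair 2 at -0.08. These are correlations across genes, which are not independent replicates. The same sign in all 3 pairs was found in 4528 genes, or 23.4%. Without pair 3, edgeR called 62 genes higher (0.319% of 19422 tested) and 50 genes lower (0.257%) at 7 days, from 4 libraries with 1 residual degree of freedom. Without pair 1 or without pair 2 it called 0 genes. In pair 3 itself, 43 of those 62 genes had a negative ratio and 40 of those 50 had a positive one. The median log2 ratio of the 62 was 0.78 in pair 1, 0.97 in pair 2 and -0.25 in pair 3, and that of the 50 was -0.67, -0.84 and 0.61. Both libraries of pair 3 also had less depth and more of the shoot markers, as given above, and a higher mean level of touch and early wounding genes, at 3.25 log2(CPM + 1) for 7 days and 2.95 for 1 day. In pairs 1 and 2 that mean was 2.34 and 2.23 at 7 days and 2.41 and 2.44 at 1 day. The part of depth, shoot transcripts or touch genes in the difference between the pairs was not tested. Values below are given for each pair, and genes named for their call without pair 3 were chosen after their values were seen.

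**Figure D2:**
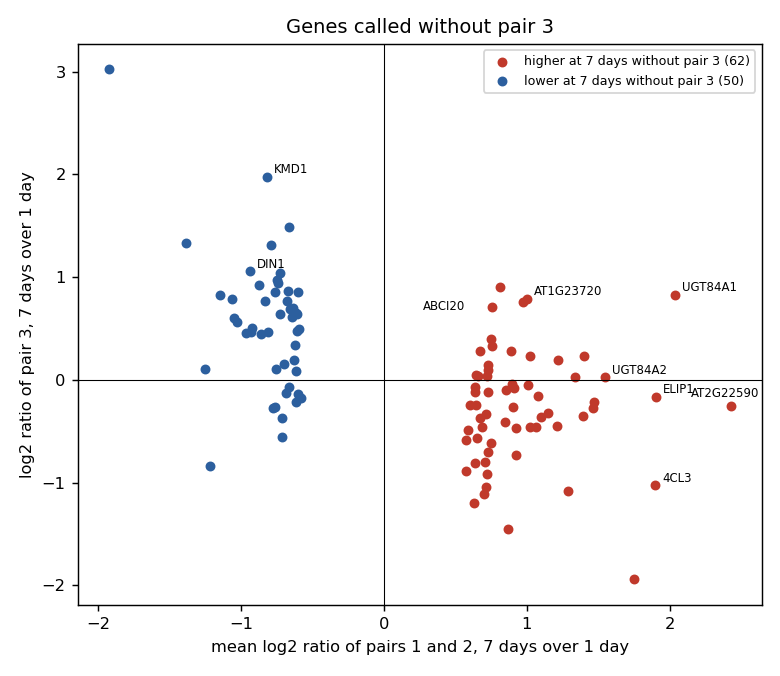
Log2 ratio of 7 days over 1 day in pair 3 (vertical axis) against the mean of pairs 1 and 2 (horizontal axis) for the 112 genes called without pair 3, 62 higher in red and 50 lower in blue. Since pairs 1 and 2 chose the genes, only the vertical position is free: 43 red points lie below 0 and 40 blue points lie above 0.

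The light signalling list had a small positive median at 7 days over 1 day in each pair, though single members were lower in pair 3. Of the 31 tested members of the light signalling list (33 in all), 25 had a positive log2 fold change, against 50.6% of all genes. The list's median was 0.16 (0.14, 0.18 and 0.15 in pairs 1, 2 and 3), against 0.00 over all genes. An unadjusted p under 0.05 was reached by 10 members, all of them higher, where 1.95% of all genes did so, and 0 passed the adjusted test. The roots were measured whole, so fewer cells that express a gene and less RNA per cell cannot be told apart, here or below.

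SIGE, a sigma factor that directs transcription in plastids, had 30.4, 39.4 and 34.9 CPM in the 7 day libraries and 20.2, 26.4 and 24.8 CPM in the 1 day libraries. The groups did not overlap, and the log2 fold change was 0.56 with SE 0.12, with pair values of 0.59, 0.57 and 0.49. HY5 had 25.1, 29.5 and 28.0 CPM in the 7 day libraries and 20.7, 24.6 and 19.4 CPM in the 1 day libraries. Its lowest 7 day library was just above its highest 1 day library, with a log2 fold change of 0.35 (SE 0.13, 95% interval 0.06 to 0.63). HYH, its homolog, had pair values of 0.54, 0.75 and -0.12.

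In all, 10 of the 31 tested members had groups that did not overlap, all of them higher at 7 days, where 3.06% of all genes did so. UVR2 and CRY3 were among them. UVR2, a photolyase that repairs ultraviolet damage, had 11.3, 14.1 and 14.5 CPM in the 7 day libraries and 8.15, 8.12 and 11.1 CPM in the 1 day libraries. CRY3, of the cryptochrome family, had 38.0, 45.2 and 36.1 CPM in the 7 day libraries and 26.2, 23.7 and 32.6 CPM in the 1 day libraries. All 7 day libraries lay above all 1 day libraries in both genes, with log2 fold changes of 0.57 (SE 0.16) for UVR2 and 0.55 (SE 0.16) for CRY3, and neither passed the adjusted test. RUP2, a repressor of the ultraviolet-B receptor UVR8, and the B-box factor BBX25 stood at 0.58 (SE 0.17) and 0.64 (SE 0.20) on the log2 scale, and the photoreceptor gene PHYB at 0.27 (SE 0.12). Other regulators lay near 0, such as COP1 at -0.02 (SE 0.11), PHYA at 0.01 (SE 0.12) and CRY1 at -0.03 (SE 0.12).

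The early light-induced genes were higher at 7 days in pairs 1 and 2 only. ELIP1, whose product binds chlorophyll and is made under strong light, had 21.4, 42.5 and 11.2 CPM in the 7 day libraries and 8.08, 7.81 and 12.7 CPM in the 1 day libraries. The 7 day library of pair 3 was below the 1 day library of that pair, so the groups overlapped. Its log2 fold change was 1.35 with SE 0.39 and a 95% interval of 0.48 to 2.22 (adjusted p = 0.9995), and it was 1.95 without pair 3 (adjusted p = 3.14e-07) and 0.70 without pair 2. ELIP2, its close copy, had 8.75, 13.1 and 7.04 CPM in the 7 day libraries and 4.08, 3.46 and 8.21 CPM in the 1 day libraries, and 1.01 (SE 0.33) on the log2 scale. For scale, mock roots had 78.3, 151 and 130 CPM of ELIP1, above all 6 carbenicillin libraries. The same held for HY5, with 35.6, 52.0 and 43.0 CPM in mock roots, and for SIGE, with 53.1, 110 and 73.5 CPM. These mock levels were not tested here, and any contrast of 1 day with mock shares the 1 day libraries with the present one.

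Flavonoid genes had the largest median of all lists, and it came from pairs 1 and 2. Of 13 tested members (18 in all), 12 had a positive log2 fold change. The median was 0.64, with 0.93 in pair 1, 1.23 in pair 2 and -0.28 in pair 3, and the 95% interval lay within 2-fold for 3 members. At an unadjusted p under 0.05 there were 9 members, all higher, where 1.95% of all genes did so, and 0 passed the adjusted test. Without pair 3, 10 of the 13 were called higher by edgeR, where 0.319% of all genes were, and the median was 1.09.

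UGT84A1, which glucosylates hydroxycinnamic acids, was the member furthest from 0. It had 5.38, 10.5 and 3.596 CPM in the 7 day libraries and 1.36, 2.14 and 1.96 CPM in the 1 day libraries. All 7 day libraries lay above all 1 day libraries, and the log2 fold change was 1.88 with SE 0.28 and a 95% interval of 1.24 to 2.51 (adjusted p = 0.861; 8.65e-06 without pair 3). For scale, mock roots had 10.2, 30.7 and 14.8 CPM. Its relative UGT84A2 had 30.3, 51.5 and 23.2 CPM in the 7 day libraries and 12.6, 14.2 and 22.8 CPM in the 1 day libraries. Here the groups were separated by a narrow margin in pair 3, with pair values of 1.25, 1.84 and 0.03.

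The flavonoid glucosyltransferase UGT78D2 had 45.2, 66.7 and 46.9 CPM in the 7 day libraries and 23.7, 23.4 and 40.9 CPM in the 1 day libraries. Its groups did not overlap, and the log2 fold change was 0.90 (SE 0.22). TT7, the flavonoid 3'-hydroxylase, had 17.5, 41.2 and 14.8 CPM in the 7 day libraries and 7.65, 12.2 and 18.0 CPM in the 1 day libraries. Flavonol synthase FLS1 had 186, 351 and 134 CPM in the 7 day libraries and 97.3, 149 and 150 CPM in the 1 day libraries. In both TT7 and FLS1 the lowest 7 day library and the highest 1 day library were those of pair 3, and the log2 fold changes were 0.97 (SE 0.32) and 0.68 (SE 0.24). CHS, the chalcone synthase that opens the pathway, was at 0.27 (SE 0.21) on the log2 scale. OMT1, a methyltransferase, was the member below 0, at -0.08 (SE 0.16).

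MYB12 was the member whose pairs lay closest together. It had 12.7, 14.0 and 9.59 CPM in the 7 day libraries and 9.80, 10.6 and 7.30 CPM in the 1 day libraries. Each pair gave 0.37 to 0.39 on the log2 scale although the groups overlapped, and the fitted value was 0.39 with SE 0.15 (unadjusted p = 0.0271, adjusted p = 0.9995). For scale, mock roots had 22.8, 43.8 and 36.0 CPM.

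Other genes called without pair 3 included 4CL3, AT2G22590, ABCI20 and ABCI21. 4CL3, a 4-coumarate CoA ligase that feeds flavonoid synthesis, had 24.9, 51.3 and 9.14 CPM in the 7 day libraries and 9.01, 9.95 and 18.8 CPM in the 1 day libraries. Its pair values of 1.45, 2.35 and -1.03 lay on both sides of 0. AT2G22590, a UDP-glycosyltransferase, had 8.46, 16.1 and 6.29 CPM in the 7 day libraries and 2.00, 2.08 and 7.56 CPM in the 1 day libraries. Among all 97 tested UDP-glycosyltransferases, a class taken from RefSeq after these values were seen, the median was 0.00. At an unadjusted p under 0.05, 11 were higher and 1 lower, against 1.95% and 1.81% of all genes. The 11 include AT2G22590, UGT84A1, UGT84A2 and UGT78D2, so they partly repeat values already given. ABCI20, an ABC protein, had 64.7, 88.8 and 93.6 CPM in the 7 day libraries and 46.4, 43.3 and 57.1 CPM in the 1 day libraries, with no overlap and a log2 fold change of 0.75 (SE 0.14). Its relative ABCI21 had pair values of 0.88, 0.92 and -0.04.

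**Figure D3:**
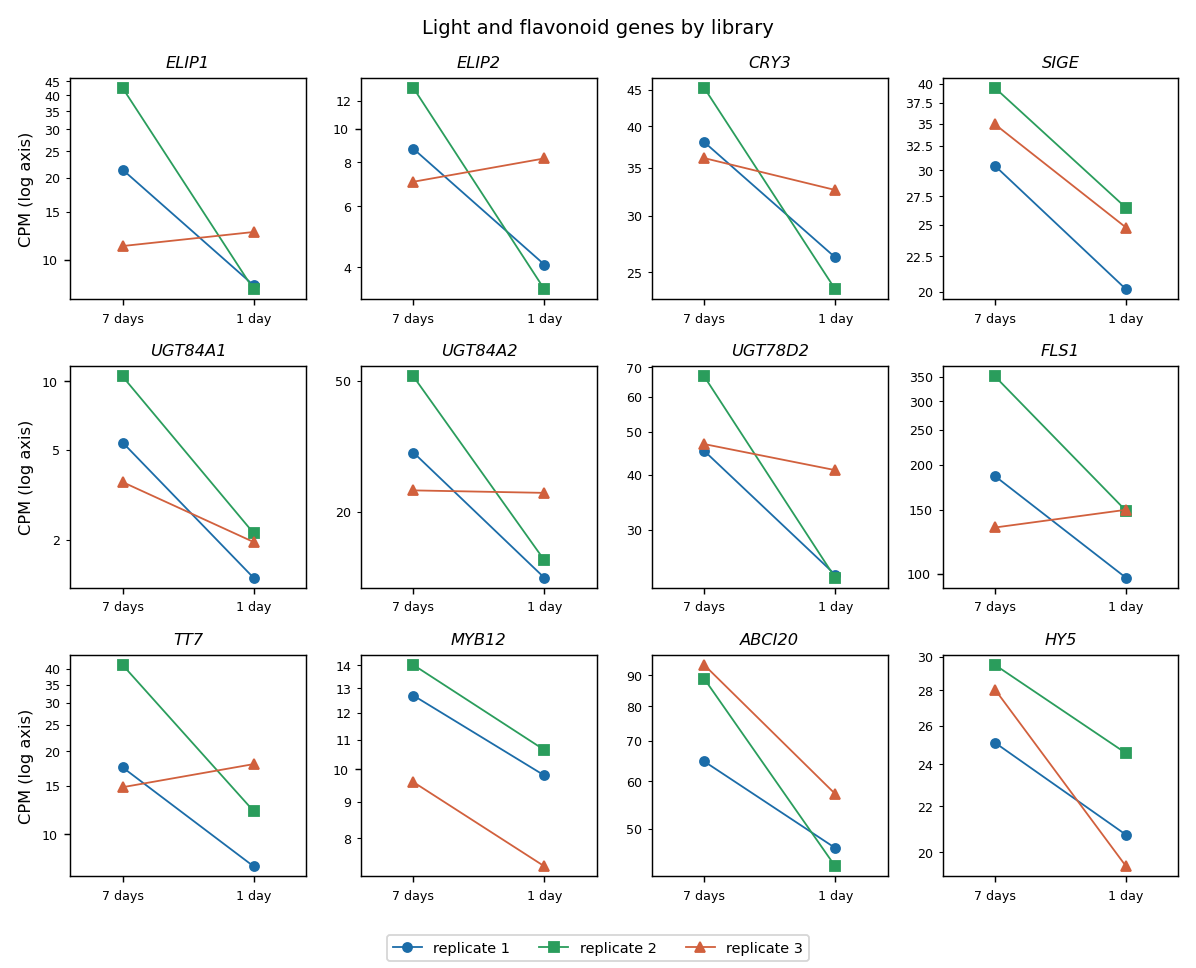
Level of 12 light and flavonoid genes in CPM (log axes) in the 7 day libraries (left of each panel) and the 1 day libraries (right), with a line joining the libraries of a pair. For ELIP1, ELIP2, FLS1 and TT7 the line of pair 3 runs the other way from those of pairs 1 and 2, while SIGE, MYB12, ABCI20 and HY5 are higher at 7 days in each pair.

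Dark-inducible and sugar starvation genes showed the opposite split between the pairs. Of 25 tested members (28 in all), 7 had a positive and 18 a negative log2 fold change, with a median of -0.08. That median was -0.18 in pair 1, -0.53 in pair 2 and 0.66 in pair 3, and 0 members reached an unadjusted p under 0.05. The mean level of the list was 4.97, 4.81 and 5.50 log2(CPM + 1) in the 7 day libraries and 5.22, 5.30 and 4.85 in the 1 day libraries. The highest library and the lowest 1 day library were thus both in pair 3. For scale, the mock libraries had 4.28, 4.74 and 4.40.

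DIN1, a senescence-associated gene switched on in the dark, had 26.4, 23.9 and 37.9 CPM in the 7 day libraries and 46.6, 49.8 and 18.12 CPM in the 1 day libraries. The groups overlapped, with pair values of -0.82, -1.05 and 1.06 and a log2 fold change of -0.36 (SE 0.33). KMD1, an F-box protein that dampens cytokinin signalling, had 36.8, 28.6 and 81.2 CPM in the 7 day libraries and 60.2, 54.7 and 20.5 CPM in the 1 day libraries. Its fitted value was 0.01 with a 95% interval of -1.05 to 1.06, and it was -0.82 without pair 3 (adjusted p = 0.00157). BGAL2, a beta-galactosidase, had 30.4, 30.8 and 41.4 CPM in the 7 day libraries and 46.5, 42.1 and 28.8 CPM in the 1 day libraries.

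The sucrose exporter SWEET12 had 12.6, 9.65 and 33.7 CPM in the 7 day libraries and 27.8, 21.8 and 18.9 CPM in the 1 day libraries. Its relative SWEET11 had pair values of -1.03, -0.50 and 0.86. DYL1, a dormancy-associated protein, had 75.2, 74.3 and 146 CPM in the 7 day libraries and 132, 142 and 77.0 CPM in the 1 day libraries, and AT2G33830, of the same family, had pair values of -1.22, -0.90 and 0.79. All 4 genes were lower at 7 days in pairs 1 and 2 and higher in pair 3. AT1G19530 had 7.39, 11.5 and 8.84 CPM in the 7 day libraries and 16.0, 30.7 and 8.21 CPM in the 1 day libraries, and pair 3 lay near 0, at 0.10.

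**Figure D4:**
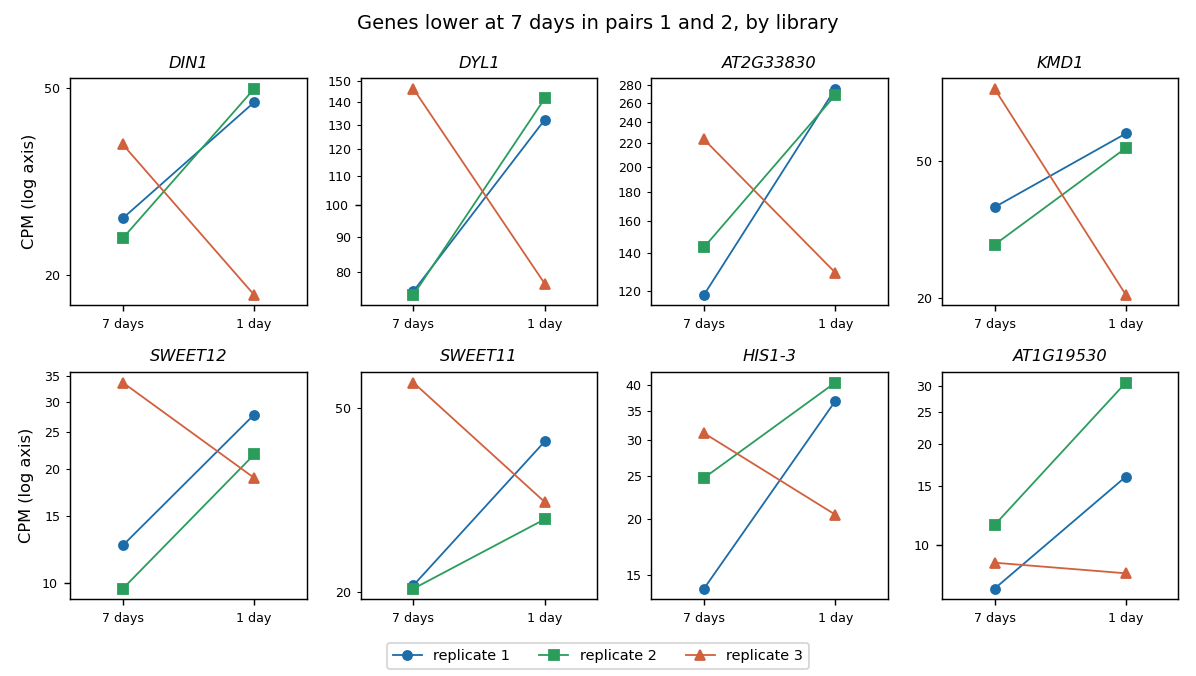
Level of 8 genes in CPM (log axes) in the 7 day libraries (left of each panel) and the 1 day libraries (right), with a line joining the libraries of a pair. The genes were chosen, after their values were seen, from the 50 called lower at 7 days without pair 3. The line of pair 3 runs the other way in each, least in AT1G19530, while 10 of those 50 were lower in pair 3 too.

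Sulfur genes had a small positive median that was highest in pair 1. Of 22 tested members of the sulfate list, 19 had a positive log2 fold change, against 50.6% of all genes. The median was 0.09, with 0.32 in pair 1, 0.08 in pair 2 and 0.04 in pair 3, and it was -0.02 without pair 1. An unadjusted p under 0.05 was reached by 3 members, all higher, where 1.95% of all genes did so. The member furthest from 0 was GGCT2;1, a gamma-glutamyl cyclotransferase of glutathione breakdown, at 1.01 (SE 0.37) with pair values of 1.60, 0.33 and 0.62, and LSU1 was the lowest, at -0.33. APR3, an adenosine phosphosulfate reductase, had 137, 83.2 and 162 CPM in the 7 day libraries and 94.6, 71.8 and 114 CPM in the 1 day libraries. The groups overlapped, but each pair was higher at 7 days, and the log2 fold change was 0.42 (SE 0.12). APR2, of the same family, had one of 0.40 (SE 0.12). The sulfur starvation genes LSU2 and SDI1 stood at 0.07 (SE 0.21, 95% interval -0.40 to 0.54) and 0.19 (SE 0.23, 95% interval -0.35 to 0.72) on the log2 scale. LSU2 had 4.80, 3.82 and 3.596 CPM in the 7 day libraries and 4.00, 3.84 and 3.91 CPM in the 1 day libraries, against 10.5, 9.55 and 14.8 CPM in mock roots.

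Glucosinolates are sulfur-rich defence compounds made from methionine (aliphatic) or tryptophan (indole). Aliphatic glucosinolate genes had a median of 0.38, with a positive log2 fold change in 15 of 17, and 8 had an unadjusted p under 0.05, all higher, where 1.95% of all genes did so. Pair 1 gave most of it, with a median of 0.77 against 0.07 in pair 2 and 0.04 in pair 3. MAM1, which elongates methionine, had 61.9, 29.6 and 20.7 CPM in the 7 day libraries and 38.0, 28.1 and 11.2 CPM in the 1 day libraries, and CYP83A1, a core enzyme, had 81.3, 38.4 and 13.9 CPM in the 7 day libraries and 35.9, 31.5 and 13.0 CPM in the 1 day libraries. Both genes had overlapping groups, with log2 fold changes of 0.52 (SE 0.16) and 0.58 (SE 0.20). Without pair 1 the list's median was 0.12.

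The 95% interval lay within 2-fold for 28 of 31 indole glucosinolate genes, against 12 of 17 aliphatic ones and 92.2% of all genes. The tryptophan-converting enzyme CYP79B2 had 431, 348 and 462 CPM in the 7 day libraries and 446, 384 and 467 CPM in the 1 day libraries. Its log2 fold change was -0.07 with a 95% interval of -0.38 to 0.25. CYP83B1, the next enzyme, had -0.13 (95% interval -0.47 to 0.22), and the activators MYB34 and MYB51 had -0.08 (-0.35 to 0.18) and -0.16 (-0.51 to 0.18). Of the list's 31 members, 9 had a positive log2 fold change, with a median of -0.05. The side-chain enzymes CYP81F2 and IGMT2 were the 2 of 31 with an unadjusted p under 0.05, both lower, where 1.81% of all genes did so. CYP81F2 had 13.8, 14.5 and 7.94 CPM in the 7 day libraries and 16.9, 18.8 and 28.9 CPM in the 1 day libraries, a difference largest in pair 3, at -1.84 against -0.30 and -0.37. In the camalexin and immunity list, 1 of 14 tested members had a positive log2 fold change, with a median of -0.16, and the median was 0.03 without pair 2.

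Auxin response genes pointed both ways. Of 28 tested members, 9 had a positive log2 fold change, with a median of -0.07. GH3.1, which conjugates auxin to amino acids, had 6.09, 4.49 and 5.09 CPM in the 7 day libraries and 4.08, 2.08 and 3.78 CPM in the 1 day libraries, without overlap (log2 0.71, SE 0.22). GH3.2, of the same family, also had groups that did not overlap, with 20.6, 20.4 and 24.3 CPM in the 7 day libraries and 30.2, 30.4 and 25.3 CPM in the 1 day libraries (log2 -0.41, SE 0.14). GH3.3 had pair values of 0.51, -0.11 and -0.99, and IAA19, an auxin response repressor, was at -0.23 in pair 1 and 0.81 in pair 3. PIN5, of the auxin efflux carrier family, had 16.4, 8.18 and 10.0 CPM in the 7 day libraries and 9.15, 4.16 and 8.21 CPM in the 1 day libraries. Its log2 fold change was 0.73 (SE 0.18). The lateral root regulators LBD16 and LBD29 had -0.26 (-0.63 to 0.11) and 0.20 (-0.32 to 0.73), and their list of 20 tested members had a median of 0.03.

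The medians of the growth lists were highest in pair 2. Cell cycle and DNA replication genes had a positive log2 fold change in 38 of 41 members, with a median of 0.20, made of 0.06 in pair 1, 0.63 in pair 2 and -0.09 in pair 3. Ribosome genes did so in 26 of 29, with a median of 0.17 and pair medians of 0.02, 0.51 and -0.09. At an unadjusted p under 0.05 there was 1 cell cycle member and there were 4 ribosome members, all higher, where 1.95% of all genes did so, and 0 passed the adjusted test. Without pair 2 the medians were 0.00 and -0.01. The replication helicase subunit MCM5 had 34.3, 31.0 and 31.6 CPM in the 7 day libraries and 28.6, 18.8 and 25.3 CPM in the 1 day libraries, and the lowest library was the 1 day one of pair 2. Nucleolar protein NOP56 had 194, 174 and 236 CPM in the 7 day libraries and 190, 92.3 and 173 CPM in the 1 day libraries. Its log2 fold change was 0.46 (SE 0.17), and that of MCM5 was 0.44 (SE 0.14).

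The endodermal barrier list had its lowest median in pair 3. Endodermis, Casparian strip and suberin genes had a positive log2 fold change in 3 of 29 members, with a median of -0.25, made of 0.02 in pair 1, -0.15 in pair 2 and -0.58 in pair 3, and of -0.12 in the fit without pair 3. CASP2, which shapes the Casparian strip, had 46.3, 43.3 and 43.3 CPM in the 7 day libraries and 54.6, 54.2 and 56.8 CPM in the 1 day libraries. These groups were tight and did not overlap, with a log2 fold change of -0.31 (SE 0.11, unadjusted p = 0.0200). ABCG20, a suberin transporter, had 21.6, 21.9 and 16.0 CPM in the 7 day libraries and 24.8, 25.7 and 35.9 CPM in the 1 day libraries (log2 -0.49, SE 0.19).

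Root hair genes had a median of -0.09, with a positive log2 fold change in 9 of 29, and 5 members had an unadjusted p under 0.05, all lower, where 1.81% of all genes did so. RHS13, a hair-specific wall protein, had 73.1, 69.4 and 42.5 CPM in the 7 day libraries and 86.6, 105 and 62.5 CPM in the 1 day libraries. Each pair was lower at 7 days, while the groups overlapped (log2 -0.46, SE 0.12). EXPA18, a hair expansin, was at -0.36 (SE 0.11) on the log2 scale and the wall peroxidase PRX44 at -0.37 (SE 0.12). RHD6, the factor that starts hair growth, had 0.09 (95% interval -0.25 to 0.42). Without pair 3 the list's median was 0.02. Among expansins and other wall growth genes, 5 of 33 were lower and 0 higher at an unadjusted p under 0.05, against 1.81% and 1.95% of all genes, with a list median of -0.01 that was 0.15 without pair 3. The lowest p among them was that of XTH13, a xyloglucan-modifying enzyme (log2 -0.59, SE 0.18).

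Mitochondrial transcripts were higher at 7 days in 65 of 68 tested genes, with a median of 0.22 and pair medians of 0.21, 0.26 and 0.12. They took 3.33%, 4.43% and 5.31% of the counts in the 7 day libraries and 2.73%, 3.93% and 3.53% in the 1 day libraries. Each pair was higher at 7 days, the groups overlapped, and the exact two-sided sign-flip permutation test over the 3 pairs gave p = 0.25, the smallest it can give. For scale, the mock libraries had 5.94%, 3.18% and 2.199%, a wider range than that of the 6 carbenicillin libraries. The highest of these was mock replicate 1, the mock library with the lowest total, at 5820675 counts. A single gene, ATMG01390, held a sizeable part of these shares and had the largest log2 fold change of the list (0.73, SE 0.27). It had 2312, 2417 and 11660 CPM in the 7 day libraries and 1065, 2365 and 5742 CPM in the 1 day libraries. In the mock libraries it had 12320, 1865 and 825 CPM. The part of this gene in the difference was not tested. Mitochondrial genes of 1 library share that library's RNA and are not independent. The plastid genome took 1.91%, 2.04% and 2.41% in the 7 day libraries and 2.07%, 2.28% and 2.05% in the 1 day libraries (exact p = 1), and 52 of its 87 tested genes were higher, with a median of 0.04.

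**Figure D5:**
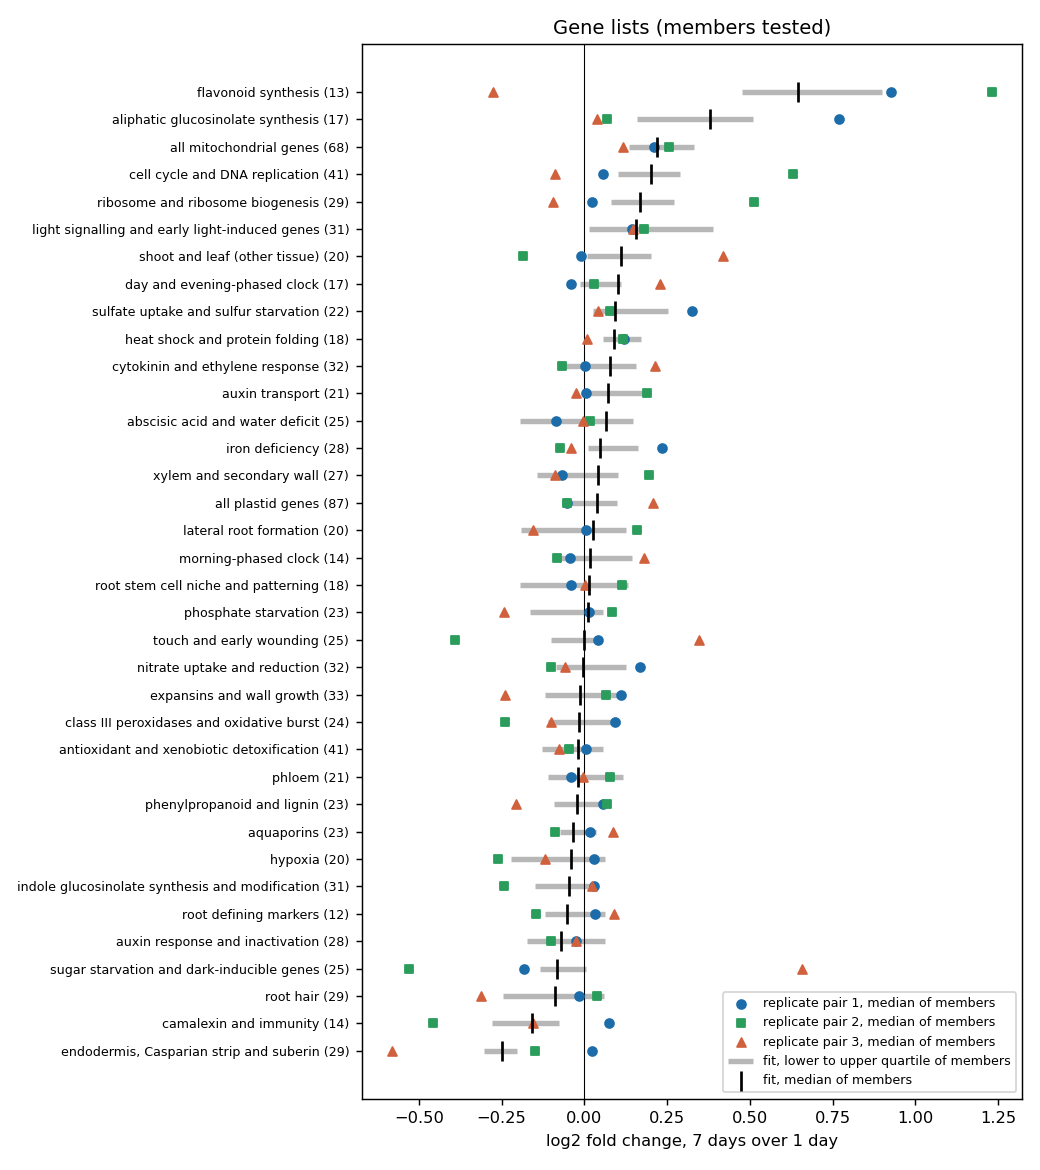
Median log2 fold change of 7 days over 1 day for each gene list (number of members tested in brackets). Black ticks and grey bars give the median and quartiles of the fitted values and coloured points the median in each pair; flavonoid and sugar starvation genes have pair 3 on the other side of 0 from pair 2, and light signalling genes have all 3 pairs between 0.14 and 0.18.

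The medians of the other lists lay between the quartiles of all genes, -0.11 and 0.12. Iron deficiency genes had a median of 0.05, and 22 of 28 had a positive log2 fold change. At an unadjusted p under 0.05 there were 3 iron members, all higher, where 1.95% of all genes did so. FRO2, the root ferric reductase, had 135, 39.1 and 56.6 CPM in the 7 day libraries and 52.2, 38.0 and 29.5 CPM in the 1 day libraries (log2 0.79, SE 0.22), and IRT1, the iron importer, had pair values of 1.16, -0.31 and 0.95. Nitrate, phosphate starvation, aquaporin, peroxidase, detoxification, phloem, xylem, lignin, hypoxia, abscisic acid, cytokinin and ethylene, stem cell niche, auxin transport, clock, heat shock, touch and wounding, shoot and root marker lists had medians from -0.05 to 0.11. The share of members with a positive value ran from 34.8% for aquaporins to 83.3% for heat shock genes, against 50.6% of all genes. At an unadjusted p under 0.05, 4 of 24 peroxidase genes were lower and 0 higher, against 1.81% and 1.95% of all genes. They include PRX44, which is also in the root hair list. None of the other lists named here had more than 2 such members in either direction.

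The genes with the lowest p outside these lists were of several kinds. AT1G23720, a proline-rich extensin-like wall protein, had 62.0, 69.2 and 168 CPM in the 7 day libraries and 31.7, 33.6 and 97.3 CPM in the 1 day libraries. The groups overlapped because both libraries of pair 3 were high, while the pairs gave 0.96, 1.04 and 0.79, and the log2 fold change was 0.93 with SE 0.12. Its adjusted p of 0.435 was the lowest in edgeR, and DESeq2 called it with an adjusted p of 0.000300. Among 18 extensin-like genes, a class taken from RefSeq after these values were seen, 11 had a positive value, with a median of 0.08. DESeq2 also called AT3G41761, a non-coding RNA, and AT2G01021, whose product is uncharacterised (adjusted p = 0.00542 and 0.00145). AT3G41761 had 171, 92.5 and 68.9 CPM in the 7 day libraries and 68.6, 59.6 and 40.8 CPM in the 1 day libraries. AT3G41979, a 5.8S ribosomal RNA gene, had 0.861, 0.0670 and 6.74 CPM in the 7 day libraries and 0.0715, 0 and 0.913 CPM in the 1 day libraries. Genes with the RefSeq class of ribosomal RNA together took 0.208% of the counts in 7 day replicate 3, against at most 0.00782% in the other 5 libraries. Organelle genes without a RefSeq class are not in that sum, so it is not the whole ribosomal RNA of a library. The part of ribosomal RNA in these values was not tested. The glycine-rich protein gene AT4G38710 had a log2 fold change of 0.77 (SE 0.16).

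In the other direction, U2 small nuclear RNA genes, whose products take part in splicing, held 3 of the 8 lowest p-values. U2.3 had 129, 160 and 88.2 CPM in the 7 day libraries and 235, 236 and 130 CPM in the 1 day libraries, lower at 7 days in each pair although the groups overlapped (log2 -0.66, SE 0.13). U2.5 and U2.4 had -0.57 (SE 0.12) and -0.58 (SE 0.13). Of the 9 tested small nuclear RNA genes, a class taken from RefSeq after these values were seen, 8 had a negative value. At an unadjusted p under 0.05 there were 6, all lower, where 1.81% of all genes did so. The class holds the 3 U2 genes above, which were chosen for their low p, so these counts partly repeat that choice. For scale, mock roots had 48.5, 222 and 80.7 CPM of U2.3, a wider spread than among the 6 carbenicillin libraries. The lowest of these was mock replicate 1, the mock library with the lowest total counts. The others of the 8 were the NAC factor NAC047 (-0.65, SE 0.14), AT1G55240 (-0.57, SE 0.12), the xyloglucan-modifying enzyme XTH24 (-0.57, SE 0.12), AT3G06390 (-0.51, SE 0.11) and ICS2, an isochorismate synthase (-0.51, SE 0.11). ICS2 had 50.4, 52.7 and 23.2 CPM in the 7 day libraries and 73.3, 71.9 and 33.9 CPM in the 1 day libraries, lower at 7 days by a similar ratio in each pair.

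The U2, ribosomal RNA, ELIP, UGT84A and extensin-like genes have near-identical or repetitive copies, so the counting could split their reads. UGT84A1, UVR2, APR2, APR3, U2.3, ICS2, AT3G41761, EXPA18, PRX44 and NOP56 overlap an annotated gene on the other strand, and U2.4 and AT3G41979 one on the same strand. Their values are uncertain as far as the counting shared reads.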

How the data were processed

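RNA-seq counts of 6 root libraries were compared, 3 per exposure. The authors deposited whole-number counts, not normalized, in 1 table with a row per gene; 2 lines that name no gene were left out. Per the submitters' processing notes FastQC, cutadapt and edgeR were used. What aligned and counted the reads, on which build and strand, is not given in the sources used here. Per the labels' protocols the library kit was stranded. Groups and replicate numbers came from sample titles. edgeR 4.0.16 (R 4.3.3) fitted the 6 libraries with filterByExpr, TMM scaling, the replicate number as a block and glmQLFTest, with Benjamini-Hochberg adjustment over 19371 genes; scripts were tested on simulated data. CPM values are TMM-scaled over the 9 libraries, except list means and sums, which use total counts. Pair ratios use log2 CPM with a prior count of 2. Standard errors are the absolute log2 fold change over the square root of F. Numbers paired the libraries: deviations from group means correlated at 0.17, 0.25 and 0.19 within pairs and at -0.18 to 0.01 otherwise. Libraries of the same group differed beyond sampling noise (chi-square over its degrees of freedom 9.72 to 27.8), and each was counted once. This cannot tell separate cultures from separate preparations of 1 culture.

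Named genes were the 8 lowest p per direction among genes averaging 1 CPM or more with the same sign in 3 pairs, up to 4 lowest-p members per list, and others fixed by name, of which 1 is not reported here. The comparison, members and lists were chosen with earlier results of these data known. Of 944 listed symbols, 923 matched the RefSeq table of assembly TAIR10.1, used for names, gene classes and overlaps, which had an entry for 28009 of 28775 genes. No list was tested. Alternatives were no block, all 9 libraries, RLE or upper quartile scaling, other filters and thresholds, DESeq2 1.42.0, no organelle or ribosomal RNA genes, and each pair left out. Promoter motifs were not analysed here.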

Additional observations from a re-analysis of the deposited data

How the results depend on the processing

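edgeR called 0 genes in each direction with the replicate block and with no replicate block (354 at an unadjusted p under 0.05), and also with all 9 libraries with or without it, RLE or upper quartile scaling, a minimum CPM of 1 in 3 libraries, no organelle or ribosomal RNA genes, an adjusted p under 0.01, or a log2 fold change of at least 1. No filter gave 1 gene higher, AT4G28520, with 1, 0 and 146 counts in the 7 day libraries and 0, 0 and 0 in the 1 day libraries. DESeq2 gave 3 higher. Leaving out 1 pair gave 0 to 62 genes higher and 0 to 50 lower, the highest counts without pair 3 (649, 381 and 2047 genes at an unadjusted p under 0.05 without pairs 1, 2 and 3). The 107 genes followed were those named for their lowest p, by name or after values were seen, and list members with an unadjusted p under 0.05. Genes chosen for a low p in the main fit seldom turn in sign, so the count of turns does not measure stability. Of the 107 genes, 10 turned in sign, 8 of them only when a pair was left out. Over these fits log2 fold changes ran from -0.050 to 0.13 for LSU2, -0.13 to 0.47 for SDI1, -0.53 to 0.017 for BGAL2, -0.12 to 0.38 for IAA19, -0.49 to 0.21 for GH3.3, -0.0020 to 0.18 for RHD6, -0.94 to 0.043 for DIN1, -0.77 to 0.18 for SWEET11, -0.87 to 0.040 for DYL1 and -0.82 to 0.55 for KMD1. GH3.3 was at 0.0047 with all 9 libraries and the replicate block, and KMD1 at -0.0075 with upper quartile scaling. The cause of these turns was not tested. Precision was lowest for genes with low counts: the median standard error was 0.23 in the third of genes with the lowest expression and 0.13 in the third with the highest.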
